A study of Arabidopsis thaliana with 12 samples.

Results

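The 8 land-plant glycerol-3-phosphate acyltransferases of Arabidopsis thaliana, GPAT1 to GPAT8, were followed in seedlings that overexpressed a repressor form of either MYB106 or WIN1. The members were chosen by locus: every probe annotated to 1 of the 8 loci was taken, which gave 9 probes of 8 genes, out of 25665 loci on the array. GPAT8 had 2 probes and every other member 1. All 8 passed the filter on dim probes, as 20267 loci did, and each was well above background on all 12 arrays with the probe used. The loci are AT1G06520 (GPAT1), AT1G02390 (GPAT2), AT4G01950 (GPAT3), AT1G01610 (GPAT4), AT3G11430 (GPAT5), AT2G38110 (GPAT6), AT5G06090 (GPAT7) and AT4G00400 (GPAT8). By their known roles, GPAT4, GPAT6 and GPAT8 were described as the cutin group and GPAT5 and GPAT7 as the suberin group.

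Whole seedlings of the Columbia-0 ecotype, aged 3 weeks, were compared in 3 groups with 4 arrays each. The first group carried 35S:MYB106SRDX and the second 35S:WIN1SRDX, each ended by the NOS terminator, and the third was wild type without a transgene. All were grown on MS agar with 1% sucrose at 23 °C under 16 h of light and 8 h of darkness. The 35S promoter is active in nearly all cells, and SRDX is a short repression peptide that turns the factor it is fused to into a dominant repressor of the genes it binds. Several seedlings from a plate that held many were pooled for each RNA sample, per the labels, and nothing states that replicates came from separate plates, so the p-values cover spread among these RNA samples only, and that spread may be technical. The labels do not say whether a line is 1 transformation event or several.

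Acyltransferases of this family are found in land plants. They load fatty acyl groups onto glycerol-3-phosphate, and several of them place the acyl group on the middle carbon, take oxidised fatty acids and carry a phosphatase part, which yields monoacylglycerols that feed lipid polymers and not membranes. Cutin is the polyester of the shoot cuticle, made by epidermal cells, and suberin is the related polyester of the root endodermis, older root layers and seed coat. MYB106 and WIN1, a MYB and an ERF-type transcription factor, are known as regulators of epidermal and cuticle genes.

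Levels are log2 intensities minus the array's own 75th percentile, so a level of 0 equals that percentile and a difference of 1 is a doubling. Differences between groups come from 1 limma fit of all 12 arrays with Benjamini-Hochberg adjustment over the 20267 tested genes and a threshold of 0.05. Per array, 59.3% to 64.2% of the spots lay well above background, and none was saturated. The transgene probes marked the lines as labelled. MYB106 read 4.57, 2.77, 4.81 and 4.53 in the MYB106SRDX replicates 1 to 4, against -3.12, -1.53, -2.33 and -2.18 in wild type. WIN1 read 5.55, 5.58, 5.39 and 5.86 in the WIN1SRDX replicates, against -9.13, -6.77, -8.25 and -6.33 in wild type, where 2 of the 4 arrays were well above background. These probes do not separate the transgene from the plant's own gene.

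In MYB106SRDX seedlings, 6 of the 8 GPAT genes fell and 1 rose; in WIN1SRDX seedlings, 4 fell and none rose. Over all tested genes, 52.2% were called in MYB106SRDX (28.6% lower and 23.6% higher) and 32.6% in WIN1SRDX (15.2% lower and 17.4% higher). GPAT3, GPAT4, GPAT6 and GPAT8 passed as lower in both lines, GPAT5 and GPAT7 in MYB106SRDX, and GPAT2 passed as higher in MYB106SRDX. GPAT1 passed in neither. At an unadjusted p under 0.05, the limma fit had 0 members higher in WIN1SRDX. In MYB106SRDX against wild type the 4 arrays of each group did not overlap for 5 genes that were lower and 1 that was higher, where 52.7% of tested genes did not overlap (28.3% lower and 24.3% higher). In WIN1SRDX this held for 5 lower genes and 0 higher ones, where 43% did not overlap (21% lower and 22% higher). The median difference of the 8 genes was -2.07 in MYB106SRDX and -2.05 in WIN1SRDX, against medians of -0.055 and 0.0014 over all tested genes. Both lines were set against the same 4 wild-type arrays. RNA came from whole seedlings, so fewer cells of a type and less RNA per cell cannot be told apart. Scaling arrays to their median in place of the 75th percentile put the median of all genes at 0.48 in MYB106SRDX and 0.046 in WIN1SRDX, and no GPAT gene that passed changed sign under it.

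**Figure D1:**
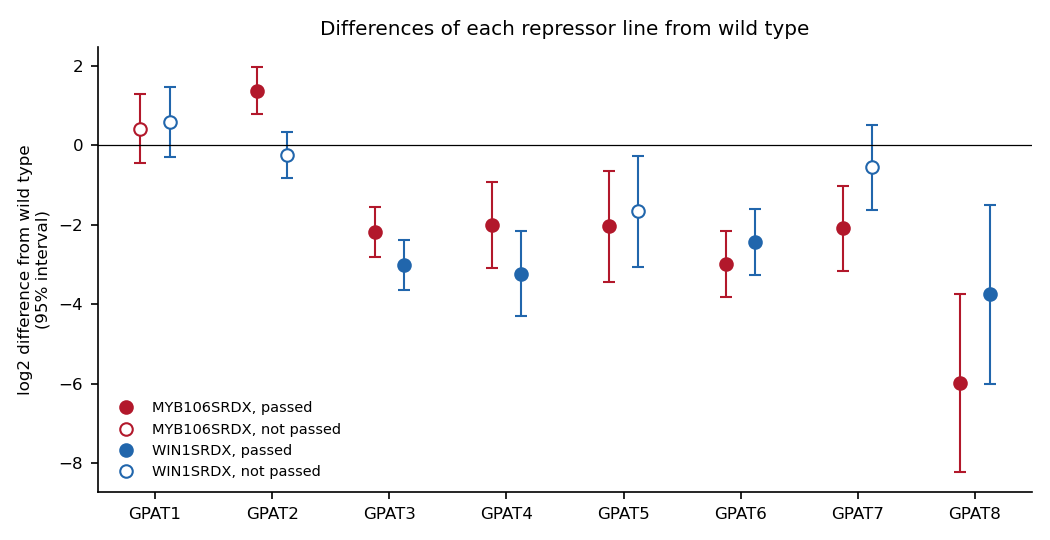
Log2 difference of MYB106SRDX (red) and WIN1SRDX (blue) from wild type for each GPAT gene, with the 95% interval of the limma fit (n = 4 arrays per group); filled points passed the adjusted threshold of 0.05. GPAT3, GPAT4, GPAT6 and GPAT8 lie below 0 and are filled in both lines, and GPAT8 in MYB106SRDX is the lowest point at -5.98.

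The cutin group had the lowest point of the family. GPAT8, which acts together with GPAT4 in cutin synthesis of leaves and stems, read -3.66, -1.22, -6.17 and -6.26 in MYB106SRDX replicates 1 to 4, -3.21, -0.28, -2.41 and -2.48 in WIN1SRDX, against 1.45, 1.59, 1.80 and 1.77 in wild type. Every array of either line lay below every wild-type array, and replicate 2 was the highest array within both lines. Replicate numbers did not pair samples. The 2 arrays share slide 2, which also held MYB106SRDX replicate 3, at -6.17. The intensities behind these levels were 24.2 to 756 units in MYB106SRDX, 185 to 1288 units in WIN1SRDX, against 5850 to 7759 units in wild type. GPAT8 fell by 5.98 ± 1.01 (SE) on the log2 scale in MYB106SRDX, a 63.2-fold lower level (limma, adjusted p = 0.000666), which ranked 105 from the lowest of the 20267 tested genes. It fell by 3.75 ± 1.01 in WIN1SRDX, a 13.5-fold lower level (limma, adjusted p = 0.0166).

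The second GPAT8 probe gave differences of -6.22 ± 1.06 in MYB106SRDX and -3.81 ± 1.06 in WIN1SRDX (SE; limma, adjusted p = 0.000696 and 0.0191). On that probe MYB106SRDX replicate 4 was not well above background, while the other 11 of the 12 arrays were. The size of the GPAT8 change varied with single arrays: it was -7.02 without MYB106SRDX replicate 2, -5.37 without replicate 3 and -5.34 without replicate 4 of that line, and in WIN1SRDX it was -4.36 without replicate 2. Its SD was 2.40 within MYB106SRDX, 1.26 within WIN1SRDX and 0.16 within wild type (n = 4 each). Among tested genes, 99.2% had a smaller SD in MYB106SRDX and 95.2% in WIN1SRDX, against 58.0% in wild type.

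GPAT4, the partner of GPAT8, read -1.0, 0.11, -1.06 and -2.54 in MYB106SRDX replicates 1 to 4, -3.19, -1.80, -1.82 and -2.59 in WIN1SRDX, against 0.93, 0.55, 0.97 and 1.06 in wild type. Neither line overlapped with wild type, and MYB106SRDX replicate 2 came nearest to it. GPAT4 fell 4.0-fold in MYB106SRDX, at a log2 difference of -2.0 ± 0.49 (SE; limma, adjusted p = 0.00565). It fell 9.37-fold in WIN1SRDX, at -3.23 ± 0.49 (limma, adjusted p = 0.000878).

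GPAT6, which is needed for the cutin of petals and other floral organs, read -3.66, -3.01, -4.93 and -4.71 in MYB106SRDX, -3.77, -3.43, -3.88 and -3.01 in WIN1SRDX, against -1.14, -1.12, -1.03 and -1.05 in wild type. All 8 arrays of the lines lay well below the narrow wild-type range, whose SD of 0.052 (n = 4) was larger than that of 7.76% of tested genes. It fell by 2.99 ± 0.37 in MYB106SRDX (limma, adjusted p = 9.24e-05) and by 2.44 ± 0.37 in WIN1SRDX (limma, adjusted p = 0.000958).

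The suberin group was lower in MYB106SRDX. GPAT5, required for suberin of seed coat and root, read -4.44, -3.66, -1.16 and -4.49 in MYB106SRDX replicates 1 to 4, -3.11, -3.40, -3.52 and -2.20 in WIN1SRDX, against -1.61, -1.41, -1.20 and -1.38 in wild type. MYB106SRDX replicate 3 was above all 4 wild-type arrays while the other 3 arrays of that line lay far below them, and no WIN1SRDX array reached the wild-type range. GPAT5 fell by 2.04 ± 0.63 in MYB106SRDX (limma, adjusted p = 0.0192). That call was lost without replicate 1 (-1.71, adjusted p = 0.0535) or replicate 4 (-1.69, adjusted p = 0.0544), and the difference was -2.80 without replicate 3. In WIN1SRDX the difference of -1.66 ± 0.63 missed the threshold (limma, adjusted p = 0.0661), and it passed with the same value when MYB106SRDX replicate 3, which adds to the shared spread, was left out (adjusted p = 0.00248).

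GPAT7, a wound-induced relative of GPAT5 that can make suberin-type monomers, read -5.73, -4.35, -4.80 and -5.71 in MYB106SRDX, -3.25, -4.91, -3.62 and -2.68 in WIN1SRDX, against -3.20, -3.73, -2.64 and -2.66 in wild type. The MYB106SRDX arrays lay below all wild-type arrays, whereas the WIN1SRDX arrays were spread across and below that range. GPAT7 fell by 2.09 ± 0.48 in MYB106SRDX (limma, adjusted p = 0.00416). In WIN1SRDX its difference was -0.56 ± 0.48, with an interval of -1.62 to 0.51 (limma, adjusted p = 0.397).

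The other 3 members have no settled part in cutin or suberin. GPAT3 read 0.32, -0.58, -0.33 and 0.43 in MYB106SRDX, -1.57, -0.70, -0.48 and -0.72 in WIN1SRDX, against 2.32, 1.83, 2.41 and 2.01 in wild type. Both lines lay below wild type on every array. GPAT3 fell by 2.19 ± 0.28 in MYB106SRDX (limma, adjusted p = 0.000120) and by 3.01 ± 0.28 in WIN1SRDX (limma, adjusted p = 6.71e-05).

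GPAT2 went the other way in 1 line. It read -1.39, -1.22, -0.38 and -1.12 in MYB106SRDX, -2.51, -2.62, -2.99 and -2.49 in WIN1SRDX, against -2.18, -2.88, -1.86 and -2.68 in wild type. All 4 MYB106SRDX arrays were above all other arrays. GPAT2 rose by 1.37 ± 0.27, or 2.59-fold, in MYB106SRDX (limma, adjusted p = 0.00149). Its difference in WIN1SRDX was -0.25 ± 0.27, with an interval of -0.84 to 0.34 (limma, adjusted p = 0.494).

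GPAT1, which is known for a role in the anther tapetum and pollen fertility, read -0.69, -0.51, -1.67 and -1.52 in MYB106SRDX, -0.41, -1.27, -0.13 and -1.96 in WIN1SRDX, against -1.60, -1.82, -1.20 and -1.43 in wild type. The 3 groups overlapped. Its differences were 0.42 (interval -0.46 to 1.30) in MYB106SRDX and 0.58 (interval -0.30 to 1.45) in WIN1SRDX, with adjusted p of 0.400 and 0.289 in limma.

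**Figure D2:**
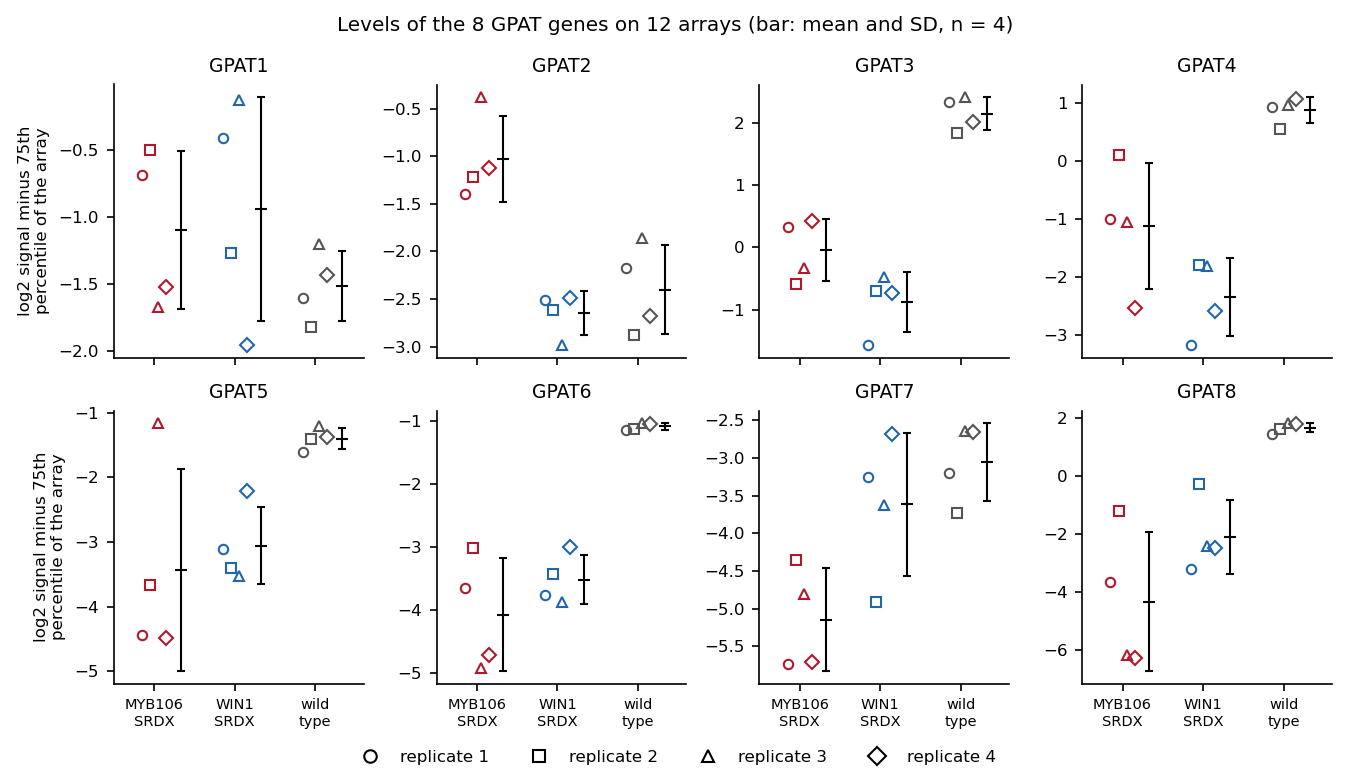
Log2 level of each GPAT gene, with the array's 75th percentile at 0, on the 4 arrays of MYB106SRDX, WIN1SRDX and wild type; symbols mark replicates, the black bar gives the mean and SD (n = 4), and each panel has its own axis. For GPAT8, replicate 2 is the highest array of both lines, at -1.22 in MYB106SRDX and -0.28 in WIN1SRDX, and for GPAT5 replicate 3 of MYB106SRDX stands at -1.16, above the wild-type arrays.

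The 12 arrays came from 3 slides that each held all 3 groups, so the differences were also taken within slides. In MYB106SRDX against wild type, the 6 genes that fell were lower within each slide: GPAT8 at -5.19, -5.50 and -8.03, GPAT4 at -1.74, -1.45 and -3.60, and GPAT6 at -2.52, -2.94 and -3.66 on slides 1, 2 and 3. GPAT2 was higher there by 1.14, 1.06 and 1.56. In WIN1SRDX, the 4 genes that fell and GPAT5 were lower within each slide, with GPAT8 at -4.74, -2.09 and -4.22. GPAT7 in WIN1SRDX took both signs, at 0.22, -2.28 and -0.49.

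Between the 2 lines, 2 GPAT genes were higher in MYB106SRDX than in WIN1SRDX and 1 was lower, where 42.6% of tested genes were called (18.3% higher and 24.2% lower). GPAT2 was higher in MYB106SRDX by 1.62 ± 0.27 (limma, adjusted p = 0.00079), and it was the 1 member whose arrays did not overlap between the lines, where 34.7% of tested genes did not overlap (19.7% lower and 15% higher). GPAT3 was higher by 0.83 ± 0.28 (limma, adjusted p = 0.0366) and GPAT7 was lower, at -1.53 ± 0.48 (limma, adjusted p = 0.0252), and for both genes the arrays of the lines overlapped. The GPAT3 call was lost when any 1 of MYB106SRDX replicates 1 and 4, WIN1SRDX replicates 1, 2 and 4 and wild-type replicate 4 was left out (adjusted p 0.0502 to 0.0943). The GPAT7 call was lost without MYB106SRDX replicate 1 or 4 or WIN1SRDX replicate 1 or 4 (adjusted p 0.0605 to 0.0702), and within slide 2 its sign turned, at 0.34.

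GPAT4, GPAT5, GPAT6 and GPAT8 did not pass between the lines. The intervals of MYB106SRDX minus WIN1SRDX were 0.15 to 2.30 for GPAT4, -1.77 to 1.01 for GPAT5, -1.38 to 0.27 for GPAT6 and -4.47 to 0.0094 for GPAT8, which leaves sizeable differences possible. Each of them passed when 1 array was left out. Without MYB106SRDX replicate 2, GPAT8 was lower in MYB106SRDX at -3.27 (limma, adjusted p = 0.00594) and GPAT6 at -0.91 (adjusted p = 0.0316). GPAT5 was at -1.14 without replicate 3 of that line (adjusted p = 0.0178) and GPAT4 at 1.70 without its replicate 4 (adjusted p = 0.00661).

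Members of like role were then set against each other within each array, which removes the scaling of the array. The difference GPAT8 minus GPAT4 averaged -3.20 ± 1.60 in MYB106SRDX, 0.25 ± 0.90 in WIN1SRDX, against 0.78 ± 0.22 in wild type (SD, n = 4 each). The difference between MYB106SRDX and wild type was -3.98, with no overlap of the arrays. The exact two-sided permutation test gave p = 0.0286, the smallest that 4 arrays against 4 can give, and 0.0686 after adjustment over 12 such tests, so it did not pass. GPAT8 minus GPAT6 differed by -2.99 and GPAT6 minus GPAT4 by -0.99 between MYB106SRDX and wild type, with the same p and adjusted p in exact permutation tests. The corresponding values in WIN1SRDX against wild type were -0.53 for GPAT8 minus GPAT4, -1.32 for GPAT8 minus GPAT6 and 0.79 for GPAT6 minus GPAT4 (exact permutation, adjusted p = 0.343, 0.190 and 0.190). The suberin pair, GPAT7 minus GPAT5, differed by -0.052 in MYB106SRDX and by 1.1 in WIN1SRDX (exact permutation, adjusted p = 0.971 and 0.171). None of the 12 tests passed after adjustment, and a test at the smallest p can pass only where enough of the 12 reach it.

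The genes around these enzymes in lipid polymer synthesis were lower in large part. Of 14 cutin partners, 11 fell in MYB106SRDX and 9 in WIN1SRDX, none rose (0 in either line at an unadjusted p under 0.05 in limma), and the medians were -2.46 and -2.43. Over all tested genes 28.6% were lower in MYB106SRDX and 15.2% in WIN1SRDX. With median scaling 8 fell and 1 rose in MYB106SRDX, and with quantile normalization 11 fell and 1 rose. Of the 14, 11 were well above background on all 4 MYB106SRDX arrays and 11 on all 4 WIN1SRDX arrays, and the rest entered the fit through brighter groups. Cytochromes of the CYP86A group oxidise the end of fatty acids before GPAT enzymes use them: CYP86A4 differed by -2.17 in MYB106SRDX and -2.52 in WIN1SRDX, and CYP86A8 by -3.31 and -1.78, and both genes fell in both lines. LACS2, a long-chain acyl-CoA synthetase that activates cutin monomers, fell by 1.88 ± 0.55 in MYB106SRDX (limma, adjusted p = 0.0148) and by 2.48 ± 0.55 in WIN1SRDX (limma, adjusted p = 0.00644). BDG1, an extracellular hydrolase-like protein of the cuticle, fell in both lines, at -2.50 in MYB106SRDX and -2.80 in WIN1SRDX. HTH, an oxidoreductase-like protein needed to keep organs from fusing, fell by 3.21 in MYB106SRDX, and its value of -1.63 in WIN1SRDX missed the threshold (limma, adjusted p = 0.0599). CYP86A7 fell in both lines, at -2.57 and -3.54, but was well above background on 2 MYB106SRDX arrays and 1 WIN1SRDX array.

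Of 12 suberin partners, 11 fell in MYB106SRDX and 8 in WIN1SRDX, none rose (0 in either line at an unadjusted p under 0.05 in limma), and the medians were -4.15 and -1.78, beside the same shares of 28.6% and 15.2% over all tested genes. FAR1, which reduces fatty acids to suberin alcohols, fell in both lines, at -3.95 in MYB106SRDX and -3.98 in WIN1SRDX. FACT, a caffeoyl transferase of fatty alcohols, fell likewise, at -4.77 and -2.60. The half-size transporters ABCG2 and ABCG6 of the suberin pathway differed by -3.48 and -4.80 in MYB106SRDX and by -1.92 and -1.64 in WIN1SRDX, and the elongase KCS20 by -2.57 and -2.25; these 3 genes fell in both lines. Between the lines, 8 of the 12 were lower in MYB106SRDX than in WIN1SRDX, where 24.2% of tested genes were, and 0 were higher, but 1 passed as higher with normexp, quantile normalization or median scaling. Of the 14 cutin partners, 0 passed between the lines. At an unadjusted p under 0.05, limma had 2 cutin partners lower and 1 higher in MYB106SRDX. When the authors' deposited value table was fitted 2 passed as lower, and with median scaling 1 passed as higher. Of the suberin partners, 1 was higher at an unadjusted p under 0.05.

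Acyltransferases of membrane and storage lipids were also measured. Of 8 tested genes of that list, 2 fell and 1 rose in MYB106SRDX and 4 fell in WIN1SRDX, with medians of -0.0065 and -0.34, where 28.6% of tested genes were lower and 23.6% higher in MYB106SRDX and 15.2% lower in WIN1SRDX. LPAT5, a lysophosphatidic acid acyltransferase, fell in both lines, by 2.82 ± 0.32 in MYB106SRDX (limma, adjusted p = 4.98e-05) and by 1.23 ± 0.32 in WIN1SRDX (limma, adjusted p = 0.0140). DGAT1, which makes triacylglycerol, rose by 0.50 in MYB106SRDX and fell by 0.73 in WIN1SRDX. ATS1, the plastid glycerol-3-phosphate acyltransferase, differed by -0.049 in MYB106SRDX, which did not pass, and fell by 0.67 in WIN1SRDX. GPAT9, the glycerol-3-phosphate acyltransferase of membrane lipid synthesis at the endoplasmic reticulum, named here outside the rule for its kinship, differed by 0.091 (interval -0.18 to 0.36) and 0.076 (interval -0.19 to 0.35) in MYB106SRDX and WIN1SRDX and passed in neither. LPAT2 fell by 0.52 in MYB106SRDX, and LPAT4 was lower in WIN1SRDX at -0.47 and passed. This list depended on scaling. In MYB106SRDX with median scaling 1 of the 8 fell (LPAT5) and 6 rose, GPAT9 among them, and LPAT2 turned to 0.021. In WIN1SRDX 3 fell with median scaling, and 3 fell and 1 rose in the authors' deposited value table.

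Supply and use of the substrate, glycerol-3-phosphate, were measured by 4 genes, of which SDP6 uses it up. GPDHC1, a cytosolic glycerol-3-phosphate dehydrogenase, fell by 1.73 ± 0.32 in MYB106SRDX (limma, adjusted p = 0.00114) and by 1.98 ± 0.32 in WIN1SRDX (limma, adjusted p = 0.00123). The glycerol kinase GLI1 and the mitochondrial dehydrogenase SDP6 rose by 0.57 and 0.41 in MYB106SRDX. Their differences of -0.18 and 0.13 in WIN1SRDX did not pass. GLY1, a plastid glycerol-3-phosphate dehydrogenase, was at 0.11 in MYB106SRDX and 0.30 in WIN1SRDX, neither past the threshold. Over all tested genes 52.2% were called in MYB106SRDX and 32.6% in WIN1SRDX. With median scaling 1 of the 4 fell and 3 rose in MYB106SRDX.

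**Figure D3:**
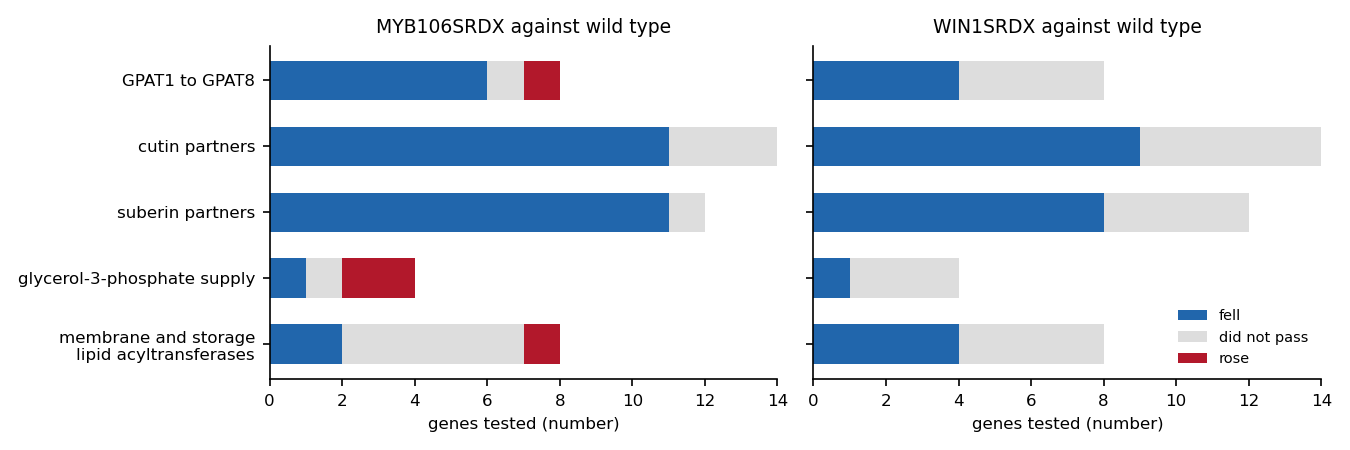
Number of tested genes that fell (blue), rose (red) or did not pass (grey) in MYB106SRDX (left) and WIN1SRDX (right) against wild type, for the 8 GPAT genes and 4 lists of related genes. The bars of cutin and suberin partners are mostly blue, with 11 of 14 and 11 of 12 genes lower in MYB106SRDX. The bars of membrane and storage lipid acyltransferases and of glycerol-3-phosphate supply, which include SDP6 that uses the substrate, are mixed.

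Of 12 tested regulators of cuticle and suberin genes, with the repressor gene SUP among them, 9 fell and 2 rose in MYB106SRDX. In WIN1SRDX 6 fell and 2 rose. Of the 13 on the array, 4 were well above background on all 4 MYB106SRDX arrays and 9 on all 4 WIN1SRDX arrays. The other tested ones entered the fit through brighter groups, so these counts are not set against the share called over all tested genes. Several regulators are dim, and with normexp background correction 5 fell in MYB106SRDX and 3 in WIN1SRDX. In MYB106SRDX the 2 that rose were MYB106 and SUP, and in WIN1SRDX they were WIN1 and SUP. MYB106 and WIN1 are the factors of the transgenes, so their rise was set by the constructs. SUP was well above background on all 4 arrays of each line and on 0 wild-type arrays. Whether its probe reads the SRDX part of the transgenes was not tested. MYB92, a suberin regulator, fell by 3.92 in MYB106SRDX and by 1.18 in WIN1SRDX. The suberin-related MYB9, MYB107 and MYB39 were not well above background on any MYB106SRDX array, and their levels there were at least 4.75-fold, 2.58-fold and 3.00-fold lower than in wild type (the wild-type mean against the lowest signal well above background on each array). MYB106SRDX replicate 2 had the lowest MYB106 level of its line, 2.77, and within that line the highest GPAT8, GPAT4 and GPAT6 levels, but the lowest GPAT3 level (-0.58). The WIN1 level of WIN1SRDX replicate 2, which had the highest GPAT8 level of its line, was 5.58 and within the range of the other 3 arrays.

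Markers of cell types were read on the same arrays, and no association with the GPAT genes was tested. All 6 markers of the shoot epidermis, where cutin is made, fell in MYB106SRDX and 3 of 6 in WIN1SRDX, with medians of -2.79 and -2.49, where 28.6% and 15.2% of tested genes were lower. In MYB106SRDX 4 of the 6 fell with median scaling and 5 in the authors' deposited value table. Their summed linear level, in units of the 75th percentile, was 1.97 to 28.2 in MYB106SRDX, 1.99 to 16.3 in WIN1SRDX, against 37.9 to 42.2 in wild type, and every one of the 6 was well above background on all arrays. Replicate 2 had the highest sum in both lines, 28.2 and 16.3, as it had the highest GPAT8 level. In WIN1SRDX this did not hold for GPAT6, which was highest on replicate 4, at -3.01, and GPAT4 was nearly level on replicates 2 and 3 (-1.80 and -1.82). The mean of the 6 markers relative to wild type was -2.22, -1.23, -4.47 and -3.76 in MYB106SRDX replicates 1 to 4 and -3.74, -1.18, -1.54 and -3.08 in WIN1SRDX. Among them, FDH, an elongase of the epidermis, read -0.39, 2.74, -3.54 and -1.58 in MYB106SRDX and 3.39, 3.31, 3.35 and 3.43 in wild type. The markers' part in the GPAT4, GPAT6 and GPAT8 results was not tested.

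All 8 root endodermis markers fell in MYB106SRDX and 4 of 8 in WIN1SRDX, with medians of -5.08 and -1.14, where 28.6% and 15.2% of tested genes were lower. In WIN1SRDX 5 fell with normexp and 2 in the authors' deposited value table. Their summed level was 0.204 to 0.253 in MYB106SRDX, 1.53 to 5.72 in WIN1SRDX, against 5.73 to 7.31 in wild type. CASP4 and CASP5, membrane proteins of the Casparian strip, were not well above background on any MYB106SRDX array, and CASP5 on no WIN1SRDX array. Of the 8, 4 were well above background on all 4 MYB106SRDX arrays and 7 on all 4 WIN1SRDX arrays. The rest entered the fit through brighter groups, so the share of 28.6% is no like comparison for MYB106SRDX. On MYB106SRDX replicate 3, where GPAT5 stood above the wild-type arrays, the mean of these markers relative to wild type was -5.57, and it was -5.67 to -5.05 on the other 3 arrays. WIN1SRDX replicate 2 had the lowest endodermis mean of its line, -2.49, and the lowest GPAT7 level, -4.91. This did not hold for GPAT5, which was lowest on replicate 3 of that line, at -3.52, against -3.40 on replicate 2. The part of these markers in the GPAT5 and GPAT7 results was not tested.

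Of 7 root hair markers, 0 were well above background on all 4 MYB106SRDX arrays, so they entered the fit through the groups where they were brighter, and no count of calls is given. Their sums were 0.0247 to 0.0788 in MYB106SRDX, 2.67 to 7.03 in WIN1SRDX, against 0.812 to 1.38 in wild type, and COBL9, EXPA18 and RSL4 were not well above background on any MYB106SRDX array. Of the 5 green leaf markers, 0 passed in either line and 0 had an unadjusted p under 0.05 in limma, though with median scaling 3 passed as higher in MYB106SRDX, and with quantile normalization or the values in the authors' deposited table, 1 passed as lower there. Their sums were 471 to 603, 433 to 570 and 531 to 575 in MYB106SRDX, WIN1SRDX and wild type. Of 6 flower and anther markers, 2 were bright enough to test. SEP3, a floral organ factor, rose by 3.69 in MYB106SRDX (limma, adjusted p = 0.0193) and AP3 passed in neither line, at 2.56 and 3.39.

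**Figure D4:**
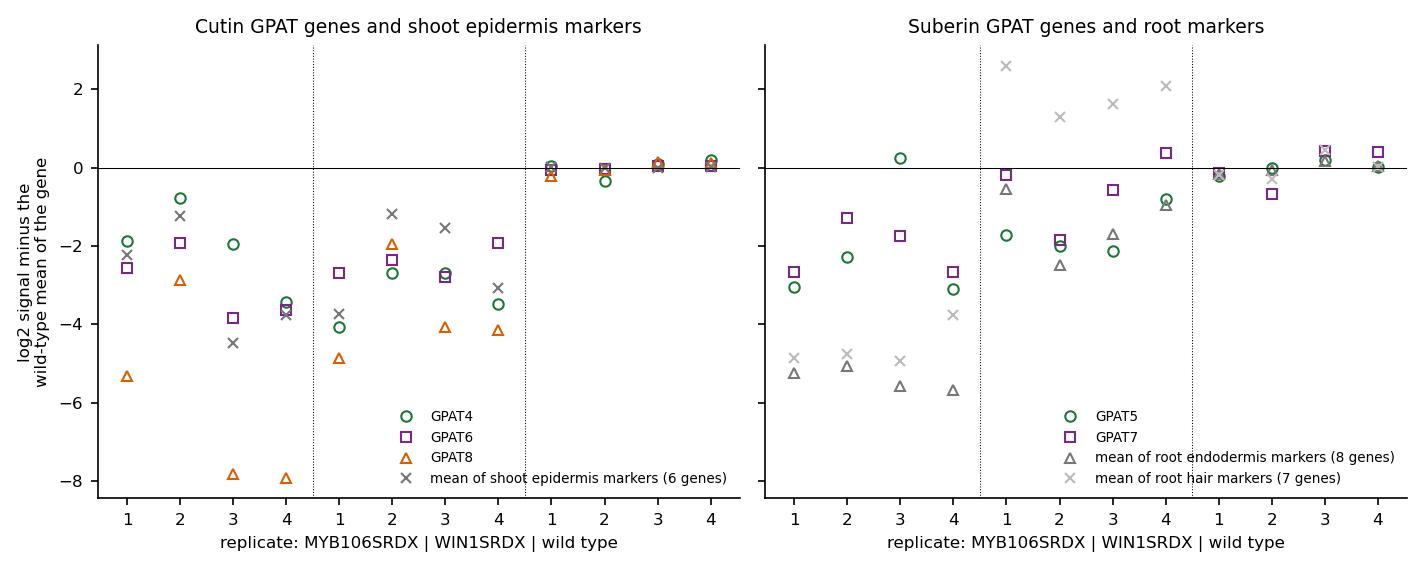
Log2 level minus the wild-type mean of the gene on each array, for the cutin GPAT genes with the mean of 6 shoot epidermis markers (left) and the suberin GPAT genes with the means of 8 root endodermis and 7 root hair markers (right). On the left, replicate 2 of MYB106SRDX is the highest array of its line for GPAT4, GPAT6, GPAT8 and the marker mean. In WIN1SRDX, GPAT6 is highest on replicate 4, at -1.92, where the marker mean lies at -3.08. On the right, GPAT5 on MYB106SRDX replicate 3 lies above 0 while the marker means there lie at -5.57 and -4.93.

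For each member, the genes with the most similar course were ranked by the root mean square difference of log2 levels over the 12 arrays, after each gene's mean was removed. Only tested genes outside the family that have a gene symbol in RefSeq were ranked, so unnamed loci could lie nearer. Small values mean alike, and the arrays share their groups, so these are descriptions. GPAT4 lay nearest to LACS2 (0.45), the wax transporter ABCG12 (0.49) and the glycosyl hydrolase GH9B12 (0.51). GPAT6 lay nearest to the elongase KCS20 (0.39), BRG3 (0.41) and ERD4 (0.46). GPAT8 lay nearest to the elongases KCS8 (0.71) and KCS16 (0.81) and the light-signalling factor PAR2 (0.86). GPAT5 was nearest to the cytochrome CYP716A1 (0.46), GLR2.3 (0.52) and SAUR9 (0.56), and GPAT7 to MIZ1 (0.36), a root hydrotropism protein, PUP17 (0.37) and CYP705A4 (0.39). GPAT3 was nearest to AtIPCS1 (0.44), SCAR4 (0.46) and CRK42 (0.46). GPAT2 was nearest to the receptor kinase SOBIR1 (0.27), PFA-DSP1 (0.32) and the formin FH4 (0.34), and GPAT1 to the ribonucleotide reductase subunit RNR2A (0.37), Tic20-I (0.37) and GONST2 (0.40).

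Within the family, GPAT3 and GPAT4 were the nearest pair (0.80), followed by GPAT3 and GPAT6 (0.87), GPAT4 and GPAT6 (0.91) and the suberin pair GPAT5 and GPAT7 (0.94). The nearest member to GPAT8 was GPAT6, at 1.57. This measure grows with the size of a gene's own differences, which were largest for GPAT8. By rank among the same genes with a symbol, 79 lay nearer to GPAT8 than GPAT6 did, but 5919 lay nearer to GPAT6 than GPAT8 did. For the suberin pair, 193 lay nearer to GPAT5 than GPAT7 did, and 1103 nearer to GPAT7 than GPAT5 did. GPAT1 and GPAT2 had no close relative in the family: their distance was 1.02, and 6404 other genes lay nearer to GPAT1 and 5434 nearer to GPAT2.

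The members lie on chromosomes 1 to 5, and 32 protein-coding genes, 2 on each side of each member in the RefSeq TAIR10.1 gene order, were taken as neighbours. Of the 24 tested, 7 fell and 6 rose in MYB106SRDX and 5 fell and 3 rose in WIN1SRDX, which is close to the 52.2% and 32.6% called over all tested genes. GPAT4 and CYP86A4, whose products act in successive steps, are direct neighbours on chromosome 1, with 0 protein-coding genes between them. CYP86A4 read -1.98, -3.96, -4.03 and -3.95 in MYB106SRDX replicates 1 to 4, -3.99, -3.68, -4.47 and -3.17 in WIN1SRDX, against -1.56, -1.09, -1.13 and -1.44 in wild type. Both genes lay below wild type on all 8 arrays of the lines, but MYB106SRDX replicate 2 was the highest array of its line for GPAT4 and not for CYP86A4.

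GPAT8 lies 3 protein-coding genes from CYP86A2 on chromosome 4, a gene of the cutin list that was singled out after its values were seen. CYP86A2 read 0.48, 2.71, 1.16 and 0.56 in MYB106SRDX replicates 1 to 4, -0.34, 2.66, 1.73 and 1.11 in WIN1SRDX, against 3.90, 3.54, 3.83 and 3.67 in wild type. Replicate 2 was its highest array in both lines, as for GPAT8. CYP86A2 fell by 2.51 in MYB106SRDX (limma, adjusted p = 0.00580) and by 2.44 in WIN1SRDX (limma, adjusted p = 0.0117). The tested gene next to GPAT8, AT4G00390, also singled out after its values were seen, rose by 2.04 in MYB106SRDX and by 2.65 in WIN1SRDX (limma, adjusted p = 0.0225 and 0.0109).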

How the data were processed

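Scanner output was deposited by the authors. Per the file headers, version 9.1.3.1 of Agilent Feature Extraction wrote it: a 1-colour (Cy3) intensity per spot that the software had corrected for background, with the uncorrected median, background and flags. In the authors' deposited value table each value is the ratio of that intensity to a constant of the group, 1082.6 in MYB106SRDX, about 995.6 in WIN1SRDX and 1264.0 in wild type, found by setting it against the scanner intensities (100% of probes within 1%); it is linear, not centred, and served as an alternative.

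Outlier-marked and control spots were removed, replicate spots averaged, and log2 of the processed intensity was taken relative to the 75th percentile of each array. The probe of highest mean stood for a locus. A gene was tested if some group had it well above background on its 4 arrays, with at least 2 unmarked values in every group. Groups were compared with limma 3.58.1 in R 4.3.3 (lmFit, eBayes, 9 residual degrees of freedom), tested on simulated data, and pairs of members with exact permutation tests. Genes called numbered 10587 in MYB106SRDX and 6606 in WIN1SRDX, each against wild type, and 8625 between the lines. A scaled intensity has no known link to molecules, and the number of arrays limits the precision.

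The members and lists were chosen with earlier results of these data known. The text names all members and, for each member, the 3 genes nearest in course among tested genes with a RefSeq symbol. It also names up to 4 tested genes of lowest p per list and line, and the chromosome neighbours that are in a list. Exceptions are marked. Of 25665 loci, 25449 matched the RefSeq table of TAIR10.1, which gave names and gene order; the files name no genome build, so no coordinates are printed. Of 84 list genes, 82 were named there. Probe, promoter and protein sequences were not used here, so cross-hybridisation between family members was not tested and the planned motif and identity descriptions were not made. No array pair held identical values. The same replicate number did not pair samples: over the 3 comparisons, correlations of same-numbered deviations ran from -0.165 to 0.196. Alternatives were normexp on the raw median and background intensities (offset 50; the planned mean signal is not among the columns used), quantile and median scaling, other filters, probe rules and fits, slide and replicate blocks, array weights and leaving out each array; each slide had 1 scan time, so a scan block equals the slide block.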

Additional observations from a re-analysis of the deposited data

How the results depend on the processing

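Over all alternatives other than leaving out an array, the counts of genes called ran from 8875 (a filter that kept fewer genes, those above background on each of the 12 arrays) to 13033 (median scaling) in MYB106SRDX against wild type. Scaling moved the split of calls: the share of higher calls there was 45.2% as reported, 75.9% with median scaling and 38.5% in the authors' value table, in WIN1SRDX against wild type 53.4%, 58.5% and 66.5%, and between the lines 43.1%, 77.1% and 25.6%. Median scaling put the median of all genes at 0.48 in MYB106SRDX against wild type and at 0.46 between the lines. The 7 GPAT genes called in MYB106SRDX became 6 with median scaling, where GPAT5 was at -1.50 (limma, adjusted p = 0.0590), and were 6 to 7 when each array was left out. The 4 called in WIN1SRDX were 4 to 5, and GPAT5 was added with normexp, quantile normalization, array weights or only the groups compared. Between the lines, the 3 called became 1 when only the groups compared were fitted and 1 to 5 when each array was left out. GPAT7 between the lines had a difference of -0.77 with normexp (adjusted p = 0.0887), also did not pass with quantile normalization, median scaling or only the groups compared (adjusted p 0.115, 0.0874 and 0.0592), and reversed to 0.34 within slide 2, where 2 arrays stand against 1; the cause was not tested. Between the lines GPAT4 passed with quantile normalization or median scaling, and GPAT3 did not pass in the authors' value table, with array weights or with only the groups compared. With the replicate number as a block, genes called numbered 10031, 5860 and 8013 and GPAT genes called 7, 4 and 2, for MYB106SRDX and WIN1SRDX against wild type and for the 2 lines; GPAT3 between the lines was lost (adjusted p = 0.0646), and no other GPAT call changed. For pairs of members the block allows no exact p below 0.125. Leaving out WIN1SRDX replicate 2 brought 7 of the 12 pair differences to an exact-permutation adjusted p under 0.05, and no other alternative changed a pair's call. The pair tests of MYB106SRDX against wild type do not use that array, so their values and unadjusted p stayed the same. The number of arrays fixes the smallest p, and the adjusted p then depends on how many of the 12 tests reach it. No conclusion is drawn from these calls. The dimmest members, GPAT7 and GPAT8 in MYB106SRDX, had the lowest signals over background.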
